A study of Homo sapiens with 4 samples.

Results

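The genes described here belong to the oxygen-sensing pathway of VHL and the hypoxia-inducible factors (HIF), to their target genes and to glycolysis. The list holds 44 genes of the 36359 in the count table, chosen by gene name with earlier results of these data known. It has 8 VHL-HIF regulators, 14 hypoxia targets, 3 glucose and lactate transporters and 19 glycolytic enzymes and their regulators. All 44 were found, and 43 had enough counts to be tested. The RNA-seq libraries came from ACHN, a cell line established from a human renal cell carcinoma (RCC). There were 2 libraries after transfection of the control siNC and 2 after siPRR11, and the comparison asks what lies downstream of PRR11. Both groups were grown in the same serum-containing medium, and neither the labels nor the methods name a hypoxic treatment or an oxygen level. The labels do not say whether the libraries of a group came from separate cultures, so p-values measure only the spread between these libraries. Which siPRR11 duplex each library received is not given in the sources used here, and the data rest on 1 cell line.

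In cells with enough oxygen, the EGLN prolyl hydroxylases mark HIF-α proteins, and the VHL ubiquitin ligase then sends them to the proteasome. When oxygen is low or VHL is lost, HIF1A or EPAS1 (HIF-2α) pairs with ARNT and switches on genes for glucose uptake, glycolysis, pH control, mitophagy and collagen modification. Most clear cell RCCs lose VHL and carry this programme without hypoxia, whereas ACHN is generally described as a line with a working VHL gene. Control of HIF-α lies largely at the level of protein stability, which mRNA counts do not measure.

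PRR11, the targeted gene, was at 41.3 and 40.4 CPM (counts scaled to library size after TMM normalization) in siNC and at 15.3 and 14.02 CPM in siPRR11. The groups did not overlap, and siPRR11 kept 35.9% of the control level in the edgeR fit. On the log2 scale it fell by 1.48 (standard error 0.0909, adjusted p = 3.35e-06). Tests named edgeR are its quasi-likelihood test on counts, with p-values adjusted after Benjamini-Hochberg over 21630 genes. Counted reads per library lay between 59003839 and 92612749, and mitochondrial genes took between 4.96% and 5.58% of them, with both siPRR11 libraries above both siNC libraries. All 5 renal epithelial markers were expressed, with a summed level between 1756 and 2151 CPM in siNC and between 1988 and 2186 CPM in siPRR11. Most of this sum came from the keratin KRT8, at 1169 to 1435 CPM in siNC and 1376 to 1498 CPM in siPRR11. PAX8 lay between 253 and 375 CPM and PAX2 between 18.2 and 23.6 CPM. EPCAM had a log2 fold change of -0.65 and KRT18 one of 0.36, both with an edgeR adjusted p-value under 0.05. The leukocyte list summed to 46.3 to 57.4 CPM in siNC and 55.5 to 60.9 CPM in siPRR11, nearly all of it from CD68. Of the exonic bases of CD68, 81.7% overlap other annotation on the same strand. The endothelial list summed to at most 0.446 CPM. The markers PTPRC, CD3E, PECAM1, CDH5, KDR, HBA1 and HBA2 were at or below 0.0935 CPM in every library. LYZ and VWF were higher, at 0.785 to 1.54 CPM and 0.171 to 0.318 CPM.

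After silencing of PRR11, these genes passed the test about as often as all genes did, and in both directions. Of the 43 tested, 8 passed edgeR's test at an adjusted p-value under 0.05, with 4 higher and 4 lower in siPRR11. This is 18.6% of them, close to the 16.7% called among all genes tested, of which 7.61% were higher and 9.14% lower. ADM, BNIP3L, SLC2A1 and PFKL rose. HIF1A, ARNT, MXI1 and ENO1 fell. The median log2 fold change of the 43 genes was 0.06, beside 0.00224 over all genes tested. The CPM values of the groups did not overlap for 25 of the 43, with 15 above and 10 below siNC. Over all genes tested 58.4% did not overlap, with 29.1% above and 29.3% below. ADM was the single gene of the list whose log2 fold change exceeded 1 in size. With limma on log2(RPKM + 1), where 61.5% of all called genes were higher against 45.4% in the test on counts, the calls became 4 higher and 1 lower. In bulk RNA, fewer expressing cells and less RNA per cell cannot be told apart.

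**Figure D1:**
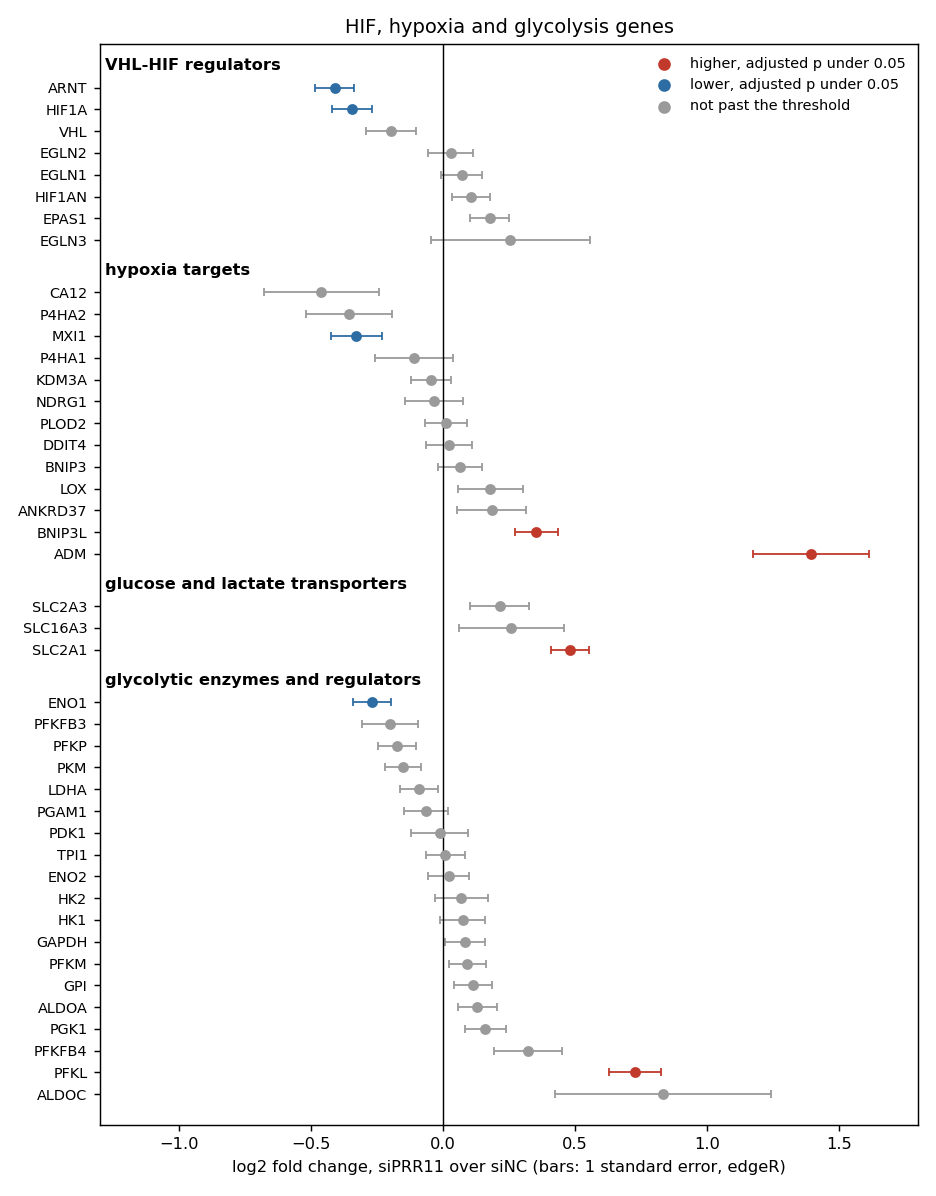
The log2 fold change of siPRR11 over siNC (x axis) is plotted for the 43 tested genes in their 4 groups, with bars of 1 standard error from edgeR. The 4 genes in red (higher) and 4 in blue (lower) had an adjusted p-value under 0.05, and 34 of the 35 grey genes lie within 0.5 of 0.

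Upstream sequences are shown for PFKL, which rose, and ARNT, which fell, since both have a single RefSeq start and a stretch before it that lies outside exons. ADM, SLC2A1 and ENO1 also have a single start, but no such stretch of at least 80 bases was left. They are RefSeq's GRCh38.p14 bases within 250 bases before the start, limited to the longest such stretch, exonic neither in GENCODE release 44 nor in the annotation of the count table. Capitals mark the core of the hypoxia response element, ACGTG or GCGTG, searched on both strands. CACGTG holds ACGTG on each strand, so it counts on both. The stretches are written 5′ to 3′ on the strand of the gene and lie at chr21:44299803-44300050 (plus, PFKL) and chr1:150876769-150876849 (minus, ARNT).
PFKL: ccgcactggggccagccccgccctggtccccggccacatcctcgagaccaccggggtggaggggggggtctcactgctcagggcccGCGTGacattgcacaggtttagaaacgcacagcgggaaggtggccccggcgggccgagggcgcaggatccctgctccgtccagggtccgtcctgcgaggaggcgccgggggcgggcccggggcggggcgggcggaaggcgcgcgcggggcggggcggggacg
ARNT: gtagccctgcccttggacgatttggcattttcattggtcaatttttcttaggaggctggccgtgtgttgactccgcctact
The PFKL stretch held 1 core motif, GCGTG, which starts 164 bases before the RefSeq start, and the ARNT stretch held none. In the whole windows of 250 bases, ADM held 1 motif and ENO1 2, while SLC2A1 held 0. Over all windows of that length, 43.2% of 35116 promoters in the table and 53.5% of those of tested genes held a core motif. Of the 44 genes, 40 had an entry and 45 of their 73 windows held one. NDRG1, BNIP3L, VHL and SLC2A3 had no entry. The windows of hypoxia targets held a core motif most often, in 15 of 17. For VHL-HIF regulators it was 4 of 9, and for glycolytic enzymes and regulators 23 of 41. The 17 windows came from 12 genes, the 9 from 7 and the 41 from 19. Windows of 1 gene can overlap and count the same motif again, as for LOX and KDM3A. These short motifs are a description of the letters and not of bound sites.

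Among the VHL-HIF regulators, the mRNAs of both subunits of HIF-1 fell, while none of the hydroxylases passed the test. HIF1A, the oxygen-regulated subunit of HIF-1 (chr14:61695513-61748259, plus strand), was at 401 and 408 CPM in siNC and at 334 and 302 CPM in siPRR11. Both silenced libraries lay below both controls, at 78.7% of the control level in the fit. Its log2 fold change was -0.35 (edgeR, standard error 0.0755 and adjusted p = 0.00875). It was -0.27 without siPRR11 library 2 (adjusted p = 0.114 from the same test) and -0.30 with limma on log2(RPKM + 1) (adjusted p = 0.0635), so the call did not hold there. Over the 12 alternative settings its adjusted p ran from 4.92e-07 to 0.114. ARNT, the constitutive partner of both HIF-α proteins (chr1:150809705-150876768, minus strand), was at 81.5 and 81.6 CPM in siNC and at 61.0 and 61.6 CPM in siPRR11. The libraries of each group nearly coincided, and the gap between the groups was far larger than either spread. The log2 fold change of ARNT was -0.41 (edgeR, standard error 0.0736 and adjusted p = 0.00297), and it passed the threshold under all 12 alternative settings.

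EPAS1, which encodes HIF-2α, the main oncogenic HIF of clear cell RCC, was at 336 and 311 CPM in siNC and at 370.2 and 361 CPM in siPRR11. The groups did not overlap, with siPRR11 above, but the log2 fold change of 0.18 (standard error 0.0728) had an edgeR adjusted p of 0.126 and did not pass. Without siNC library 1 it was 0.23 and passed. Per length, HIF1A was at 76.5 and 77.8 RPKM (reads scaled for exonic length and for depth) and EPAS1 at 45.3 and 41.9 RPKM in siNC. HIF1A was at 66.1 and 59.4 RPKM and EPAS1 at 51.6 and 50.1 RPKM in siPRR11. HIF1A thus made up 62.8% and 65.0% of their sum in siNC and 56.1% and 54.2% in siPRR11. The difference in this share was -8.73 percentage points, without overlap (exact permutation test, two-sided, p = 0.333, the smallest that 2 libraries against 2 allow). The size of the share depends on the exonic lengths used, 5151 bases for HIF1A and 7302 for EPAS1. VHL, the substrate receptor of the ligase, was at 41.8 and 46.7 CPM in siNC and at 36.2 and 41.0 CPM in siPRR11. The siPRR11 values lay just below those of siNC, and the log2 fold change of -0.20 (edgeR, adjusted p = 0.178) did not pass, whereas it passed at -0.28 without siNC library 1.

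Of the hydroxylases, EGLN1 (PHD2), the main oxygen sensor for HIF-α, was at 85.1 and 83.0 CPM in siNC and at 92.1 and 84.4 CPM in siPRR11. EGLN2 was at 48.1 and 46.9 CPM in siNC and 45.6 and 51.3 CPM in siPRR11, with the groups overlapping, and 27.2% of its exonic bases are shared with another gene of the same strand. EGLN3, which is itself induced by HIF, stood at the edge of detection, at 0.600 and 0.552 CPM in siNC and at 0.721 and 0.655 CPM in siPRR11. HIF1AN (FIH), which hydroxylates HIF-α at a separate site and blocks its coactivators, had a log2 fold change of 0.11. None of these 4 passed the threshold, with log2 fold changes between 0.03 and 0.25. At an unadjusted p-value under 0.05, 3 of the 8 regulators passed edgeR's test, where 30.3% of all genes tested did.

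**Figure D2:**
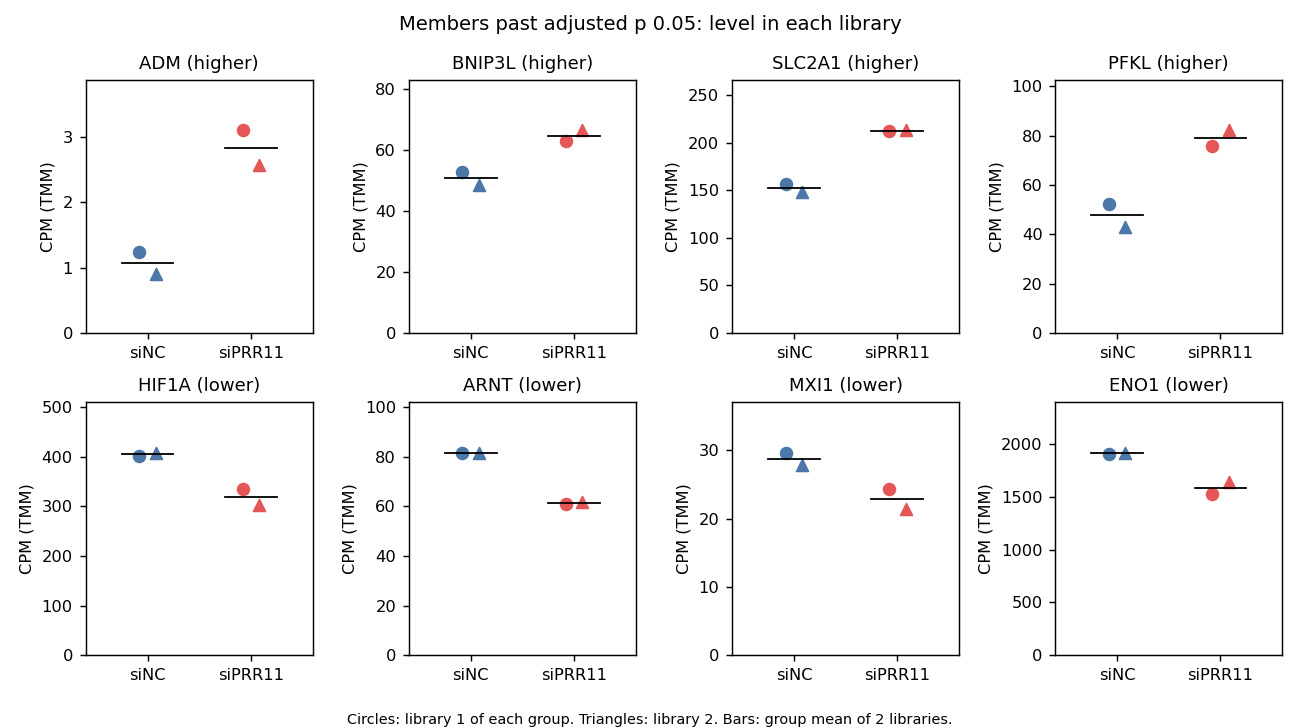
Each panel gives the TMM-normalized CPM (y axis from 0) of 1 gene with an adjusted p-value under 0.05 in the 2 siNC and 2 siPRR11 libraries, with library 1 as a circle, library 2 as a triangle and a bar at the group mean. In all 8 panels the groups do not overlap, and ADM runs from 0.897 CPM in siNC to 3.10 CPM in siPRR11.

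Among the 14 hypoxia targets, 3 of 13 tested genes passed, ADM and BNIP3L higher and MXI1 lower. This is 23.1% of the 13, beside the 16.7% called among all genes tested. The median log2 fold change of the 13 was 0.01. ADM encodes adrenomedullin, a vasodilator peptide whose gene is a classical HIF target (chr11:10304680-10307397, plus strand). It was at 1.24 and 0.897 CPM in siNC and at 3.10 and 2.57 CPM in siPRR11. Both silenced libraries were above both controls, and the fitted level was 2.63-fold higher. The log2 fold change was 1.39 (edgeR, standard error 0.218 and adjusted p = 0.00137), and it was 0.57 on the log2(RPKM + 1) scale, which compresses changes at low levels. The call of ADM held under all 12 alternative settings. BNIP3L (NIX), a mitophagy receptor of the outer mitochondrial membrane (chr8:26382898-26505636, plus strand), was at 52.8 and 48.5 CPM in siNC and at 63.0 and 66.4 CPM in siPRR11. The groups did not overlap, with a log2 fold change of 0.35 (edgeR, standard error 0.0810 and adjusted p = 0.0115). Without siPRR11 library 2 it was 0.32, with an adjusted p of 0.113 from the same test. Its adjusted p ran from 2.14e-06 to 0.113 over the 12 settings, and 11 of them passed. Its paralog BNIP3, with the same role in mitophagy, was at 83.9 and 76.6 CPM in siNC and at 79.7 and 88.2 CPM in siPRR11. Those groups overlapped, and the log2 fold change of BNIP3 was 0.06. For BNIP3L, 8.96% of the exonic bases overlap genes on the opposite strand.

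MXI1, a MAX-binding repressor that opposes MYC (chr10:110207605-110287365, plus strand), was at 29.7 and 27.9 CPM in siNC and at 24.4 and 21.4 CPM in siPRR11. The silenced libraries were lower, with a log2 fold change of -0.33 (edgeR, standard error 0.0964 and adjusted p = 0.0364). This call did not hold without siNC library 1 (adjusted p = 0.056), without siPRR11 library 2 (adjusted p = 0.365) or with limma on log2(RPKM + 1) (adjusted p = 0.142). It passed under 8 of the 12 settings, with adjusted p-values from 0.000136 to 0.365.

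The other hypoxia targets were not tested or did not pass. CA9, the carbonic anhydrase that VHL-deficient RCC expresses strongly, had 3 and 0 counts in siNC and 2 and 0 counts in siPRR11 and was not tested. A count of 0 allows up to 3 counts, so CA9 was at or under the detection limit in both groups. CA12, a related carbonic anhydrase, was at 1.74 and 2.00 CPM in siNC and at 1.19 and 1.52 CPM in siPRR11, with an edgeR adjusted p of 0.179. NDRG1, a stress-responsive gene, was at 39.3 and 30.5 CPM in siNC and at 34.3 and 33.9 CPM in siPRR11, so the siPRR11 libraries lay between the controls. DDIT4 (REDD1), an inhibitor of mTORC1, had a log2 fold change of 0.02, but 41.2% of its exonic bases overlap a gene on the opposite strand. ANKRD37 and KDM3A, a histone demethylase, had log2 fold changes of 0.18 and -0.05, and 35.2% of the exonic bases of ANKRD37 are covered from the other strand.

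The 4 enzymes of collagen modification in the list differed more between the libraries of one group than between the groups. P4HA1, a prolyl 4-hydroxylase subunit, was at 88.9 and 58.6 CPM in siNC and at 71.6 and 65.1 CPM in siPRR11, both of which lay between the controls. P4HA2 was at 57.5 and 39.4 CPM in siNC and at 43.6 and 32.2 CPM in siPRR11, and LOX, which cross-links collagen, at 34.2 and 26.0 CPM in siNC and at 36.5 and 31.7 CPM in siPRR11. The highest over the lowest siNC value was 1.52 for P4HA1, 1.46 for P4HA2 and 1.32 for LOX, beside a median of 1.09 over the 14193 genes at a mean log2 CPM of 1 or more. The lysyl hydroxylase PLOD2 was at 119 and 109 CPM in siNC and at 118 and 112 CPM in siPRR11. None of the 4 passed with all libraries, with log2 fold changes between -0.36 and 0.18, but single libraries decided 3 of them. P4HA2 passed at -0.61 without siNC library 2 and at -0.59 without siPRR11 library 1, and stood at -0.06 without siNC library 1 and -0.16 without siPRR11 library 2. It also passed with no filter and with the replicate number as a block. P4HA1 passed at -0.38 without siNC library 2 and was at 0.22 without siNC library 1. LOX passed at 0.39 without siNC library 1 and with the block, and was at -0.01 without siNC library 2.

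Of the 3 transporters, 1 rose, where 7.61% of all genes tested were called higher. SLC2A1 (GLUT1), the basal glucose transporter (chr1:42925375-42959173, minus strand), was at 157 and 148 CPM in siNC and at 212.7 and 213 CPM in siPRR11. The siPRR11 libraries nearly coincided, well above both controls, and the fitted level was 1.40-fold higher. Its log2 fold change was 0.48 (edgeR, standard error 0.0721 and adjusted p = 0.00106), and it passed under all 12 alternative settings. SLC2A3 (GLUT3), a high-affinity transporter, was at 7.84 and 7.52 CPM in siNC and at 9.11 and 8.71 CPM in siPRR11, with an edgeR adjusted p of 0.23. Per length SLC2A1 made up between 96.1% and 96.8% of the RPKM of these 2 transporters in every library. Pseudogenes named after SLC2A3 held up to 251% of its own counts, so its level is uncertain. SLC16A3 (MCT4), the lactate exporter induced by HIF-1, was low, at 1.96 and 2.14 CPM in siNC and at 2.81 and 2.07 CPM in siPRR11, and the groups overlapped.

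Of the 19 glycolytic enzymes and regulators, PFKL rose and ENO1 fell, which is 10.5% of the list beside 16.7% of all genes. PFKL, the liver-type subunit of phosphofructokinase, which catalyses the committed step of glycolysis (chr21:44300051-44327376, plus strand), was at 52.4 and 42.8 CPM in siNC and at 75.7 and 82.1 CPM in siPRR11. The groups were well apart, and the fitted level was 1.66-fold higher. In log2 terms the change was 0.73 (edgeR, standard error 0.0987 and adjusted p = 0.000565), and it passed under all 12 alternative settings. PFKP, the platelet-type subunit, was at 484 and 455 CPM in siNC and at 415 and 416 CPM in siPRR11. Its log2 fold change of -0.18 had an edgeR adjusted p of 0.117 and did not pass, whereas it passed at -0.23 without siNC library 2. PFKM, the muscle-type subunit, was at 158 and 162 CPM in siNC and at 172 and 168 CPM in siPRR11, with a log2 fold change of 0.09. Per length, PFKP was the main subunit, with 78.5% and 77.7% of the summed RPKM of the 3 genes in siNC and 72.8% and 72.7% in siPRR11. The share of PFKL was 4.60% and 3.97% in siNC and 7.19% and 7.78% in siPRR11. None of the shares overlapped between the groups, and each had the smallest p that 2 libraries against 2 allow, 0.333 (exact permutation test, two-sided).

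ENO1, the main enolase (chr1:8861002-8879249, minus strand), was at 1906 and 1918 CPM in siNC and at 1530.4 and 1639 CPM in siPRR11. Both silenced libraries were lower, at 82.9% of the control level in the fit, with a log2 fold change of -0.27 (edgeR, standard error 0.0715 and adjusted p = 0.0227). The call did not hold without siPRR11 library 1 (adjusted p = 0.195) or with limma on log2(RPKM + 1) (adjusted p = 0.138). Across the 12 settings its adjusted p lay between 0.000165 and 0.195. Its neuronal isozyme ENO2 was at 43.1 and 44.3 CPM in siNC and at 43.7 and 44.9 CPM in siPRR11.

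The hexokinases, which trap glucose as its phosphate, did not pass the threshold. HK1 was at 219.7 and 189.9 CPM in siNC and at 225 and 206 CPM in siPRR11, and HK2, the inducible form, at 30.7 and 31.9 CPM in siNC and at 29.7 and 35.9 CPM in siPRR11. Both pairs of groups overlapped. LDHA, which turns pyruvate into lactate and is a HIF-1 target, was at 886 and 828 CPM in siNC and at 798 and 812 CPM in siPRR11, with a log2 fold change of -0.09 (edgeR, adjusted p = 0.437). PKM, the enzyme that forms pyruvate, was at 3859 and 3828 CPM in siNC and at 3425 and 3494 CPM in siPRR11. Its groups did not overlap, and its log2 fold change of -0.15 had an edgeR adjusted p of 0.161. GAPDH, a common reference gene, was at 1894 and 1766 CPM in siNC and at 1865 and 2010.5 CPM in siPRR11, and its groups overlapped. TPI1, the triose isomerase, had a log2 fold change of 0.01.

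The other enzymes had small differences. GPI, ALDOA, PGK1 and PGAM1 had log2 fold changes of 0.11, 0.13, 0.16 and -0.07. The bifunctional regulators PFKFB3 and PFKFB4, which set the level of the phosphofructokinase activator, had log2 fold changes of -0.20 and 0.32, with adjusted p-values of 0.229 and 0.114, both from edgeR. PFKFB3 passed at -0.31 without siNC library 2 and was at -0.07 without siPRR11 library 2. PDK1, a kinase that keeps pyruvate out of the mitochondria in hypoxia, was at 10.5 to 11.3 CPM in siNC and 10.4 to 11.2 CPM in siPRR11. ALDOC was low at 0.207 to 0.585 CPM, with between 12 and 50 counts, and its log2 fold change of 0.83 had a standard error of 0.409. Pseudogenes could share reads with these enzymes, since 43 entries of the table carry names of GAPDH pseudogenes, but they held at most 0.206% of the counts of GAPDH, and those of ENO1 held at most 1.40%. For GAPDH, 14.2% of the exonic bases overlap a gene on the opposite strand.

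**Figure D3:**
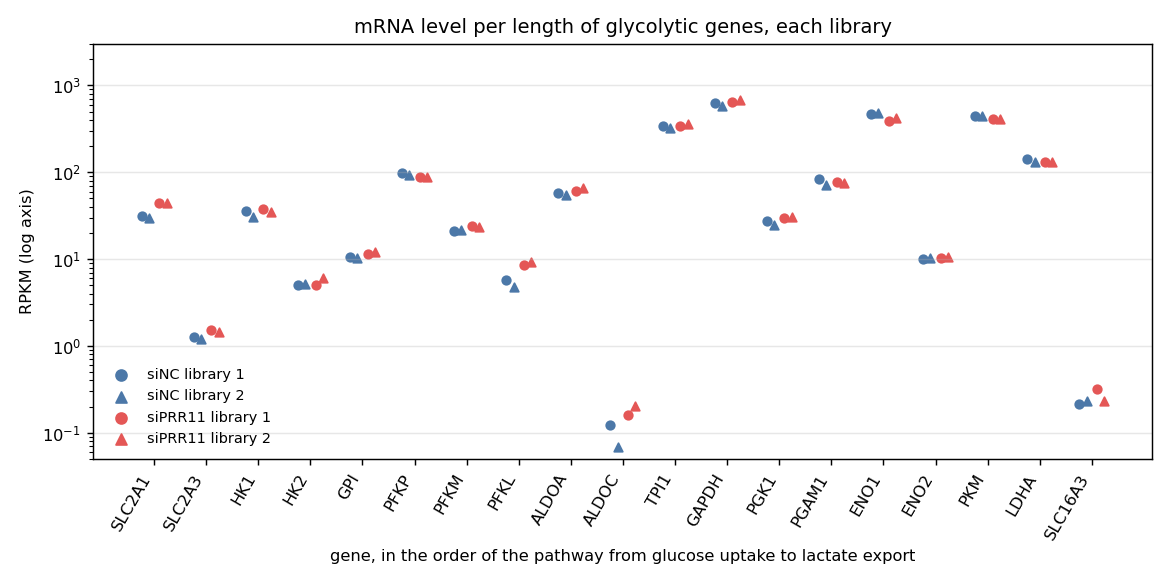
RPKM (log axis) of 19 genes from glucose uptake (left) to lactate export (right) is plotted for each library, siNC in blue and siPRR11 in red, with library 1 as a circle and library 2 as a triangle. Levels per length run from below 1 RPKM for ALDOC and SLC16A3 to between 582 and 684 RPKM for GAPDH, and red lies clear of blue most visibly for SLC2A1 and PFKL.

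Per length the pathway was uneven along its steps. GPI, between 10.3 and 11.99 RPKM in all libraries, was the lowest of the enzyme steps, transport left aside, with a single gene in the list. GAPDH was at 56.3 to 58.8 times the RPKM of GPI in siNC and 55.6 to 57.1 times in siPRR11. Part of this ratio comes from the exonic lengths, 9112 bases for GPI and 2981 for GAPDH. The summed RPKM of 16 enzymes was 2382 and 2275 in siNC and 2258 and 2360.0 in siPRR11, so the groups overlapped (exact permutation test, two-sided, p = 0.667). They took 1.11% and 1.07% of all counted reads in siNC and 1.05% and 1.09% in siPRR11. The isozymes with the highest level were not always those in the list. HKDC1, a hexokinase outside the list, chosen here after its values were seen, was at 130 and 107 RPKM in siNC and at 154 and 123 RPKM in siPRR11, and made up between 74.9% and 78.3% of the RPKM of HKDC1, HK1 and HK2. LDHB, also chosen after its values were seen, stood at 2.39 to 2.76 times the RPKM of LDHA over the 4 libraries. Much of this ratio comes from the exonic lengths, 2983 bases for LDHB and 6210 for LDHA. Before scaling for length, siNC held 83288 and 63620 counts of LDHB and 72417 and 47988 of LDHA. Shares were compared for 8 isozyme families with 19 genes, and none could pass an exact test with 2 libraries in a group.

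Other genes of the same pathways were counted in the same way, from 3 further lists of 77 genes of which 67 were tested. PGK2 was not analysed here. Of the 67, 7 were higher and 7 lower, or 20.9%, beside the 16.7% called over all genes tested (7.61% higher and 9.14% lower). Among 32 further hypoxia targets, 6 were higher and 6 lower, with a median log2 fold change of -0.01. This is 37.5% of them, above the 16.7% of all genes. The list was chosen with earlier results of these data known, and the difference in share was not tested. Among 25 further genes of glycolysis and pyruvate use, 1 was higher and 1 lower, or 8.0%. Among 10 further genes of the VHL-HIF pathway, 0 passed in edgeR, while 3 of the 10 had an unadjusted p-value under 0.05, beside 30.3% of all genes, and DESeq2, edgeR's exact test and limma called 1, 0 and 0.

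Among the hypoxia targets that rose, IGFBP3, a binding protein for insulin-like growth factors, was at 85.1 and 68.4 CPM in siNC and at 153 and 144 CPM in siPRR11. Its log2 fold change of 0.95 (edgeR, standard error 0.0988 and adjusted p = 0.00011) was the largest rise called in these 3 lists. VEGFA, the angiogenic factor that VHL loss induces in RCC, was at 73.6 and 68.4 CPM in siNC and at 98.8 and 97.7 CPM in siPRR11. The groups were clearly apart, with a log2 fold change of 0.47 (edgeR, standard error 0.0760 and adjusted p = 0.00168). NARF rose by 0.66 on the log2 scale, from 24.3 and 20.1 CPM to 34.1 and 36.0 CPM. In the list of glycolysis and pyruvate genes, PGM1, which links glycogen to glycolysis, rose by 0.50, from 53.4 and 49.0 CPM to 70.6 and 74.3 CPM. These 4 genes passed under all 12 alternative settings.

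Among the hypoxia targets that fell, ERO1A, an oxidase of disulfide formation in the endoplasmic reticulum, went from 28.0 and 30.9 CPM to 18.2 and 18.9 CPM. Its log2 fold change was -0.67 (edgeR, standard error 0.0931 and adjusted p = 0.000681) and passed under all 12 settings. HMOX1, a heme oxygenase, went from 28.6 and 24.2 CPM to 19.2 and 18.0 CPM. Its groups were apart, with a log2 fold change of -0.51, but its adjusted p with limma on log2(RPKM + 1) was 0.0599. Over the 12 settings its adjusted p ran from 4.03e-09 to 0.0599. KDM4C, a histone demethylase that shares 32.1% of its exonic bases with genes of the same strand, had a log2 fold change of -0.38. It was -0.30 without siPRR11 library 2 (edgeR, adjusted p = 0.202) and -0.24 with limma on log2(RPKM + 1) (adjusted p = 0.166), where the call was lost. The adjusted p of KDM4C ran from 7.58e-06 to 0.202 over the 12 settings. BHLHE41, named after its values were seen because its average level lies under the minimum set for named genes, was at 1.55 and 1.93 CPM in siNC and at 0.721 and 0.655 CPM in siPRR11, a log2 fold change of -1.33.

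**Figure D4:**
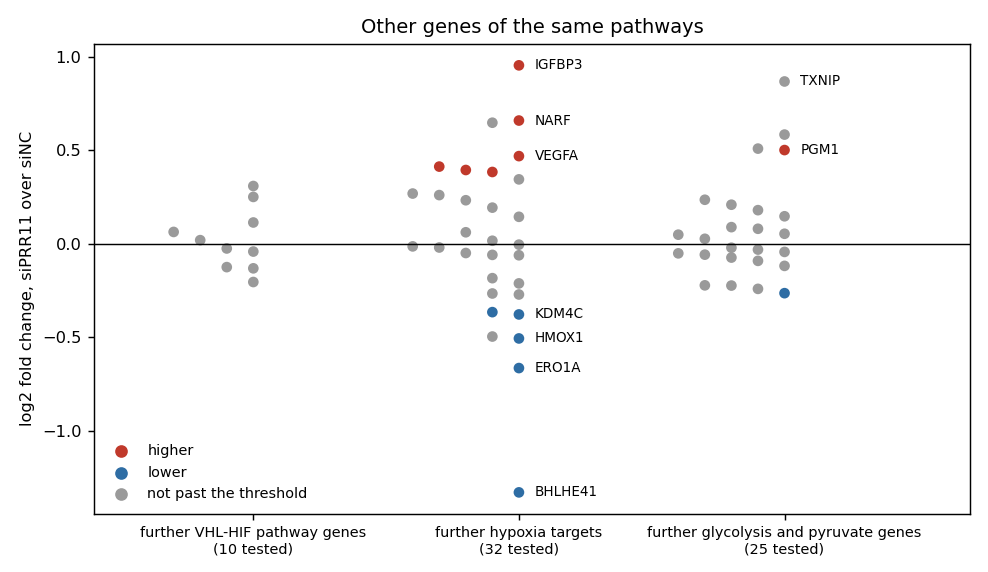
The log2 fold change of siPRR11 over siNC (y axis) is plotted for the tested genes of the 3 further lists, apart from 1 lower gene that is not reported, with side steps only to separate points. In the middle list 6 genes in red (higher) and 5 in blue (lower) lie on both sides of 0, from -1.33 for BHLHE41 to 0.95 for IGFBP3.

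TXNIP, whose transcription follows the level of glucose metabolites in the cell and whose product restrains glucose uptake, could not be placed. It was at 38.0 and 6.17 CPM in siNC and at 56.1 and 25.5 CPM in siPRR11. The siNC libraries differed by 6.15-fold, the widest gap among the 14193 genes at a mean log2 CPM of 1 or more, and the groups overlapped. The log2 fold change of 0.87 had a standard error of 0.547 and an edgeR adjusted p of 0.32. It was 0.10 without siNC library 2, 0.19 without siPRR11 library 1, 2.72 without siNC library 1 and 1.33 without siPRR11 library 2. TXNIP passed in 4 of the 12 settings, which were these last 2, the fit with the replicate number as a block and the fit without a filter. ARRDC4, a related gene under the same control and chosen after its values were seen, was at 4.65 and 1.48 CPM in siNC and at 6.35 and 3.04 CPM in siPRR11, with a gap of 3.13-fold in siNC that ranked 4 among the same genes. In both groups library 1 had the higher level of both genes.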

How the data were processed

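Reads of stranded ACHN libraries were, per the labels and the methods, trimmed with Trimmomatic 0.36, aligned to GRCh38 with STAR and counted on genes with featureCounts (Subread 1.5.1). The authors deposited raw counts per gene without normalization and RPKM values (count divided by exonic length and by the counted reads of the library) of the same libraries. The annotation release and the strand setting of the counting are not given in the sources used here, so reads from overlapping genes on opposite strands may not be separated. Column names gave group and replicate.

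The counts were tested with edgeR 4.0.16 (R 4.3.3; TMM, filterByExpr, quasi-likelihood test, siPRR11 against siNC), which kept 21630 of 36359 genes, with Benjamini-Hochberg adjustment over these genes and a threshold of 0.05. Standard errors are the log2 fold change divided by the square root of F. As alternatives served DESeq2 1.42.0, the exact test of edgeR, RLE scaling, dropping the filter, a minimum of 10 counts in all libraries, a replicate block, limma 3.58.1 with a variance trend on log2(RPKM + 1) or log2(RPKM + 0.1), and each library left out in turn. Without 1 library, the lone library of a group is assumed to vary like the other group. Levels between genes were compared per length, as RPKM. Its length is all annotated exonic bases of a gene, not the length of the transcripts expressed. Ratios and shares between genes therefore depend on the annotation. Libraries of a group were not duplicates of each other, since chi-square over degrees of freedom was 19.0 for siNC and 12.9 for siPRR11.

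The 44 genes, the further lists and the markers were chosen with earlier results of these data known. By rule, library values are given for every called member and, whatever their result, for 13 members (VHL, HIF1A, EPAS1, ARNT, EGLN1, EGLN3, HK1, HK2, PFKP, PFKL, PFKM, SLC2A1, LDHA), and from the further lists for VEGFA, TXNIP and the 4 largest rises and 4 largest falls among called genes at a mean log2 CPM of 1 or more. Library values of other members were added after they were seen. Of the 4 falls, 1 is counted in its list but not reported here by name. HBB and PGK2 were not analysed here.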

Additional observations from a re-analysis of the deposited data

How the results depend on the processing

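With 4 libraries, small changes can be missed. The replicate numbers are shared by the groups, but nothing says that a number marks a common culture. Deviations of same-numbered libraries correlated at 0.165. With the number as a replicate block the calls among the 44 genes became 8 higher and 8 lower, the former 8 among them, and those among the further genes 17 and 14. Members called only with the block were EPAS1, LOX, PFKFB4 and PGK1, higher, and VHL, P4HA2, PFKP and PFKFB3, lower, when set against the main test. Over all 21630 genes tested, the block gave 3338 higher and 3650 lower, against 1645 and 1977 without it. With limma on log2(RPKM + 1) or log2(RPKM + 0.1), 1 member was called lower (ARNT), and 4 further genes were called higher and 2 lower. Without a filter 12 further genes were called higher, where 2066 of 34506 genes were. Leaving out each library in turn gave 3 to 6 members higher and 2 to 8 lower, and 6 to 11 further genes higher and 4 to 13 lower. Members and further genes called lower became more without siNC library 2 and fewer without siPRR11 library 2. Further genes called higher became more without siNC library 1. Calls over all genes tested moved the same way, with more without either siNC library and fewer without either siPRR11 library. Over all genes the calls also fell from 3622 to 1775 with limma on log2(RPKM + 1) and 1878 with log2(RPKM + 0.1). They rose to 6988 with the block. The causes were not tested.

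None of the 8 called members changed sign under the 12 settings. Genes near 0 did: with limma on log2(RPKM + 1) and log2(RPKM + 0.1), NDRG1 moved to 0.0188 and 0.0257, KDM3A to 0.0008 and 0.001 and PDK1 to 0.015 and 0.0313. With each library left out in turn, log2 fold changes that changed sign ran as follows: EGLN2 from -0.0575 to 0.1117, NDRG1 from -0.2067 to 0.1581, BNIP3 from -0.0109 to 0.1373, P4HA1 from -0.3825 to 0.2208, PLOD2 from -0.0589 to 0.0773, LOX from -0.0086 to 0.3909, DDIT4 from -0.06 to 0.1008, HK1 from -0.0325 to 0.1802, HK2 from -0.0755 to 0.2007, TPI1 from -0.0454 to 0.0565, PGAM1 from -0.1752 to 0.0459, ENO2 from -0.0039 to 0.0406, PDK1 from -0.0677 to 0.0399.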
